A study of Homo sapiens with 6 samples.

Results

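Glutamate is the nitrogen hub of the cell, and the 8 genes described here encode enzymes that make it, spend it or pass its amino group on: GLS2, GLUL, GLUD1, GOT1, GOT2, GPT2, BCAT1 and BCAT2. They were taken by symbol from the count files, and all 8 were found among 24462 gene symbols. RNA was measured in H460, an established human lung cancer cell line, with 3 libraries from cells kept for 24 h in RPMI 1640 without glutamine and with 10% dialyzed serum (depleted) and 3 from glutamine-replete cells (replete). Routine growth medium held 10% undialyzed serum, and which serum the replete cells had during those hours is not given. The labels name no genetic change in either group. Libraries were made from 500 ng of total RNA with a 3′-end kit, so a count stands for a read near the polyadenylated end of a transcript.

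Glutaminases take the amide nitrogen off glutamine to leave glutamate, and glutamine synthetase runs the opposite way, fixing ammonia onto glutamate. Glutamate dehydrogenase and the aminotransferases link glutamate to α-ketoglutarate: the first releases ammonia, whereas the second group hands the amino group to a keto acid to form aspartate, alanine or a branched-chain amino acid. Most of these aminotransferases exist as a cytosolic and a mitochondrial enzyme from separate genes. In proliferating cancer cells, glutamine feeds the tricarboxylic acid cycle through these steps.

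Library totals ran from 7550849 to 10914899 counts. Levels are given as CPM, counts per 1000000 of the library total, on which a count of 0 allows up to 0.275 to 0.397 CPM (3 counts, counting error only). The groups parted along the main axis of variation, which took 92.1% of the variance of log2 CPM. Within groups, pairs of libraries differed by a chi-square per degree of freedom of 1.51 to 3.92, except for the pairs with depleted replicate 2, at 19.4 and 11.7, so that library stood apart and no library was counted as a duplicate. Whether the libraries of a group stem from separate cultures is not stated, and if they do not, p-values measure technical spread only. Of 5 epithelial markers, KRT8, KRT18 and KRT19 were at 72.1 CPM or more in every library, whereas EPCAM and CDH1 had 0 to 4 counts per library. The keratins were lower in depleted libraries: mean CPM was 1399 in replete and 326 in depleted ones for KRT19, 198 and 81.7 for KRT8, and 478 and 393 for KRT18. Blood and endothelial marker lists summed to at most 1.26 CPM in any library, with CDH5 and VWF at 0 counts in all 6. The 5 fibroblast-type markers, which cancer cells can also express, summed to 18.05 to 29.1 CPM in replete and 16.8 to 86.1 CPM in depleted libraries, the highest being depleted replicate 3, where COL1A1 was at 56.5 CPM. Among these markers, PDGFRB was higher in depleted libraries (6.07 to 6.78 against 2.25 to 2.77 CPM). LUM was lower there (4.01 to 4.76 against 9.80 to 11.2 CPM). The part of the fibroblast-type markers in the results was not tested, and values without each library are given with the alternatives.

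GOT1 rose after glutamine withdrawal and the other 7 genes fell. The cytosolic aspartate aminotransferase gene GOT1 rose 5.46-fold (log2 fold change 2.45, SE 0.0735, edgeR adjusted p = 1.18e-11). Among the 6 falling genes with more than 20 counts in every library, the falls ran from 1.59-fold for GLUL, glutamine synthetase, to 3.22-fold for BCAT2, the mitochondrial branched-chain aminotransferase. GLS2, a glutaminase that was low in replete cells too, fell to a handful of counts. In edgeR's quasi-likelihood test over 12739 genes, the adjusted p was below 0.05 for all 8 members and for 78.6% of all genes tested, split into 39.1% higher and 39.4% lower. The members' median log2 fold change was −1.01, against −0.02 over all genes tested. Both the count of 8 and this median include GLS2, which passed the filter on low counts through its replete libraries only. The log2 fold changes use trimmed-mean scaling between libraries. With library totals alone the median of all genes lay at −0.25 and each member lay lower by a similar amount, with the same direction and call. In RNA from whole cultures, fewer cells carrying a transcript and less of it per cell cannot be told apart.

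**Figure D1:**
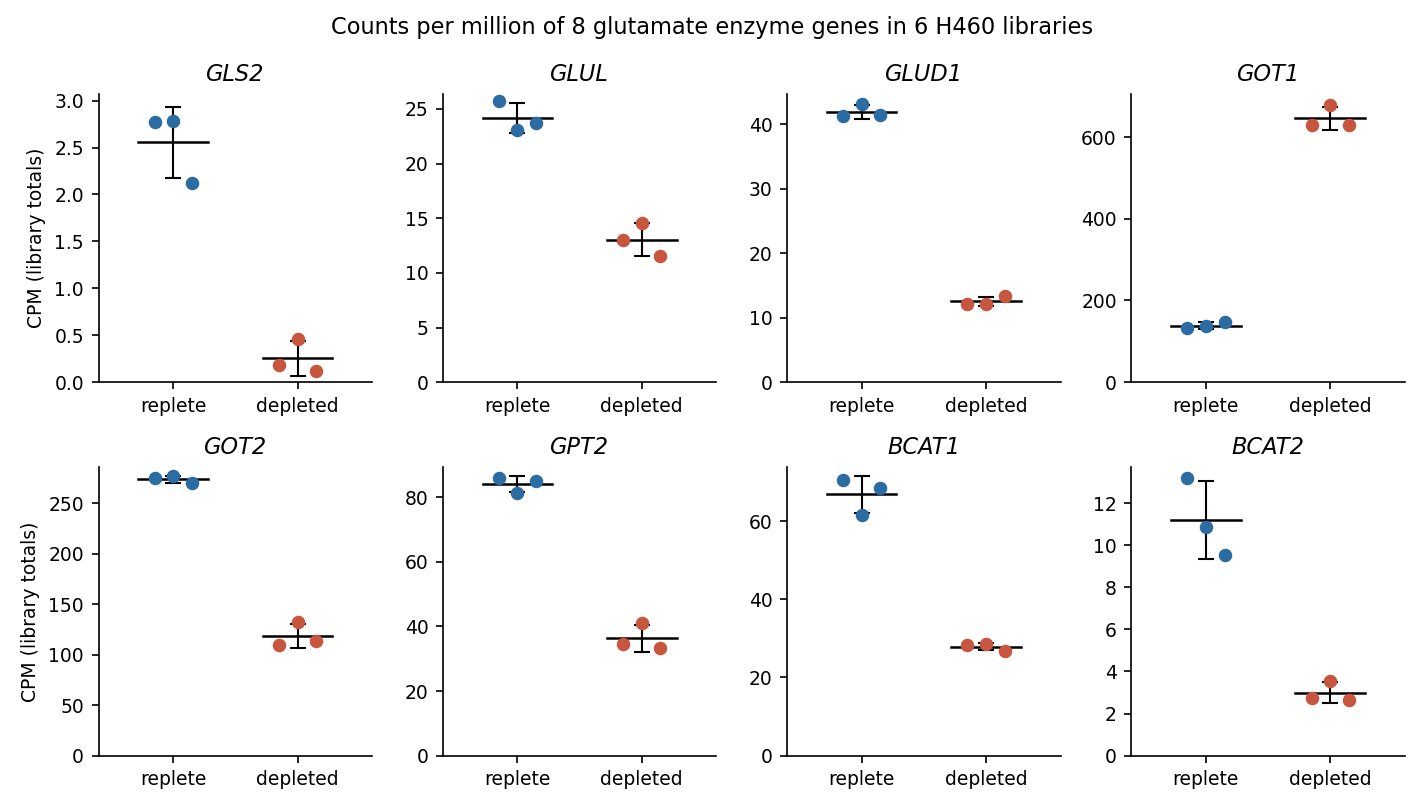
Levels in CPM of the 8 genes in each of the 3 replete (blue) and 3 depleted (red) libraries. Points are libraries, long bars the mean and whiskers the SD. GOT1 is the gene whose depleted libraries lie above the replete ones, at 629 to 679 against 131 to 146 CPM. In the other 7 panels the depleted libraries lie below all replete ones.

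The CPM ranges of the groups did not overlap for any of the 8 genes, 1 being higher and 7 lower in depleted cells. Over all genes tested, the ranges did not overlap for 81.0%, with 33.2% higher and 47.8% lower. For 7 of the 8 genes, depleted replicate 2, the library that stood apart, had the highest CPM among depleted libraries, GLUD1 being the exception. The share of all genes tested that were highest in depleted replicate 2 was not counted, so this need not be particular to the members. Without that library the falls were larger for all the falling members but GLUD1, and every call held.

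The promoters of GOT1 and BCAT1 are shown because they alone, among the 6 members with a promoter in the table used, held the core of the C/EBP-ATF response element (TGATGNAA, searched on both strands), which the amino acid stress factor ATF4 can bind with a C/EBP partner. Each sequence gives the 250 bases before a transcription start in RefSeq on GRCh38.p14, read along the gene's strand, with the motif in capitals. GOT1 lies on chr10:99430625-99430874, minus strand, and holds the motif on the opposite strand, 198 to 191 bases before the start. The BCAT1 sequence, chr12:24949102-24949351, minus strand, is 1 of 5 BCAT1 promoters in the table and holds it on the gene's own strand, 48 to 41 bases before the start.
GOT1: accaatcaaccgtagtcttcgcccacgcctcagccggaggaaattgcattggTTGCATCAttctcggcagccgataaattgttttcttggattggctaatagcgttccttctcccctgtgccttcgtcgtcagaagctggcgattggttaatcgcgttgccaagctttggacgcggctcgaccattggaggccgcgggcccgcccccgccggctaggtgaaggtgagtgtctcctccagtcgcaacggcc
BCAT1: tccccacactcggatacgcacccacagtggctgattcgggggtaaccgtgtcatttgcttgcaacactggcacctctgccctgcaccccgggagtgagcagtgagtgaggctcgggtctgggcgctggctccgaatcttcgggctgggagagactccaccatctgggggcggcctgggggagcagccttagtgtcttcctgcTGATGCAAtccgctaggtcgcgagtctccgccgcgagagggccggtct
Of 35116 promoters in the table, 3.14% held the motif over the same 250 bases, as did 2 of the members' 11 promoters. Of 27305 genes, 3.89% had a promoter with it. The other 4 BCAT1 promoters and the promoters of GLS2, GLUL, GLUD1 and GOT2 had no match in this window, and GPT2 and BCAT2 had no entry. The 2 genes with a match moved in opposite directions: GOT1 rose and BCAT1 fell. The 3′-end counts do not tell which BCAT1 start was used.

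Glutaminase and glutamine synthetase came first in the pathway. GLS2, the glutaminase first described in liver, had 25, 22 and 16 counts in replete libraries (2.77, 2.78 and 2.12 CPM) and 2, 4 and 1 counts in depleted ones (0.183, 0.458 and 0.115 CPM). The depleted libraries were thus at or near the limit of a count of 0. Summed over libraries, 63 counts stood against 7, a ratio of 10.4 with an exact 95% counting interval of 4.76 to 26.9 (counting error only, library totals). The fitted log2 fold change was −3.08 (SE 0.453, edgeR adjusted p = 3.38e-05). Without depleted replicate 2, which held 4 of the 7 counts, it was −3.73. GLS2 passed the filter on low counts through its replete libraries only, so a difference was built into its being tested. The other 7 members were above the 1.15 CPM that the filter asks for in all 6 libraries. Exons of GLS2 overlap those of SPRYD4 on the opposite strand in GENCODE 29. Whether strand was used in counting is not given, and reads of the pair cannot be told apart if it was not. SPRYD4 stood at 27.5, 28.04 and 20.5 CPM in replete and 4.67, 6.30 and 4.62 CPM in depleted libraries.

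GLUL, which makes glutamine from glutamate and ammonia, was at 25.7, 23.1 and 23.7 CPM in replete libraries and at 13.01, 14.5 and 11.5 CPM in depleted ones. Its transcript was thus lower in all 3 libraries of cells that had no glutamine in the medium, with a gap between the groups wider than the spread within either. The log2 fold change was −0.66 (SE 0.130, edgeR adjusted p = 0.000402), the smallest change of the 8, and −0.89 with library totals alone. The 14 alternatives kept it below 0, between −0.89 and −0.58, with adjusted p from 4.33e-06 to 0.00324. GENCODE 29 names 4 GLUL pseudogenes, and how the counting treated reads that match several places is not given in the sources used here.

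GLUD1, the mitochondrial glutamate dehydrogenase, fell from 41.2, 43.2 and 41.5 CPM to 12.2, 12.1 and 13.4 CPM. The 3 libraries of each group lay close together: the SD was 1.08 CPM among replete and 0.705 CPM among depleted ones. The log2 fold change was −1.51 (SE 0.109, edgeR adjusted p = 3.31e-08), a 2.85-fold fall. GLUD1 exons overlap, on the opposite strand, those of FAM35A (now SHLD2). FAM35A stood at 53.1 to 58.4 CPM in replete and 24.9 to 26.0 CPM in depleted libraries. Where along the transcripts the overlap lies was not examined, and the counts stand for reads near the polyadenylated end. Whether counts of either gene include reads of the other was not tested. GLUD2, the near-identical intronless copy of GLUD1, had 3 to 13 counts per replete and 2 to 6 per depleted library, too few to be tested. GENCODE 29 names 5 GLUD1 pseudogenes, of which 1, GLUD1P3, is among the counted symbols.

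**Figure D2:**
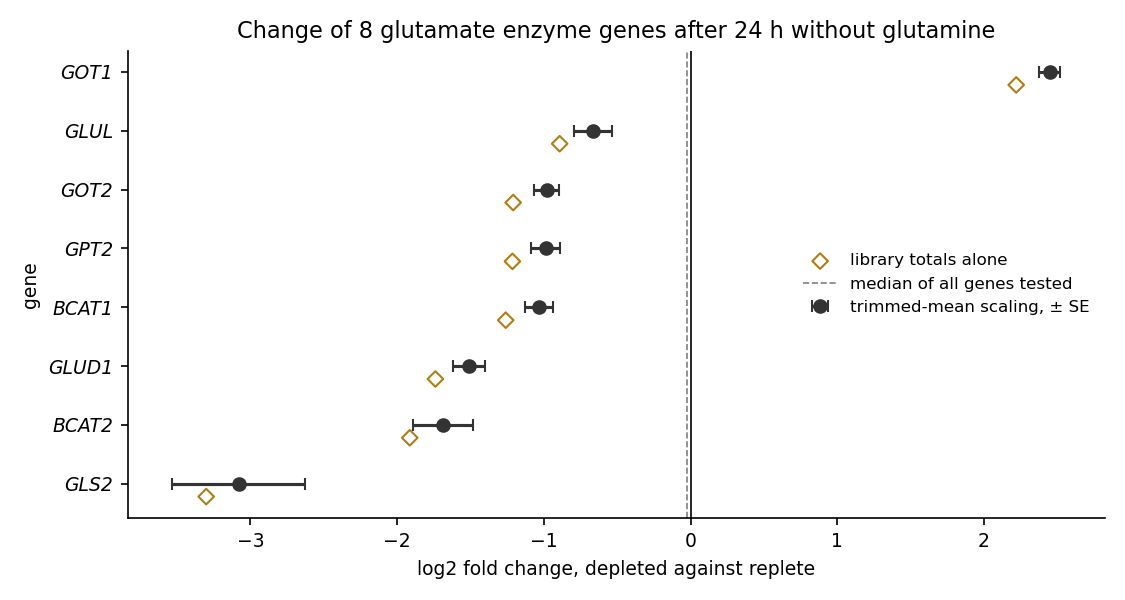
Log2 fold change, depleted against replete, of the 8 genes in order. Filled points use trimmed-mean scaling with ± SE, and open diamonds use library totals alone. GOT1 lies at 2.45 and the other genes between −3.08 and −0.66, and the diamonds keep every direction.

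The aspartate aminotransferases parted. GOT1, the cytosolic enzyme, stood at 131, 138 and 146 CPM in replete libraries and at 629, 679 and 630 CPM in depleted ones. With 5458 to 6862 counts per depleted library it was the most deeply counted member, and every depleted library was above every replete one. Of all genes tested, 5.51% had a log2 fold change at least as large as that of GOT1. GOT2, the mitochondrial enzyme, went the other way, from 275, 277 and 269.9 CPM to 109, 133 and 114 CPM (log2 change −0.98, SE 0.0839, edgeR adjusted p = 1.88e-07). GENCODE 29 names 4 GOT2 pseudogenes, none of which is among the counted symbols.

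Both enzymes work in the malate-aspartate shuttle, which carries reducing equivalents into mitochondria, on opposite sides of the inner membrane. Within a library, the GOT1 to GOT2 count ratio does not depend on the scaling between libraries, though a share of 3′-end counts need not equal a share of molecules or of protein. GOT1 took 32.3%, 33.3% and 35.2% of the counts of both genes in replete libraries and 85.2%, 83.7% and 84.7% in depleted ones (exact 95% Clopper-Pearson intervals of 30.8% to 33.9% in replete replicate 1 and 84.4% to 85.9% in depleted replicate 1, counting error only). The mean share moved from 33.6% ± 1.46 to 84.5% ± 0.763 (SD, n = 3). The log2 count ratio thus passed from −0.98 ± 0.0936 to 2.45 ± 0.0837, a difference of 3.43 or 10.8-fold. The exact two-sided permutation test gave p = 0.10, the smallest that 3 against 3 libraries allow.

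GPT2, the mitochondrial alanine aminotransferase, was at 86.0, 81.3 and 85.2 CPM in replete and 34.4, 41.0 and 33.5 CPM in depleted libraries. It fell by 0.99 on the log2 scale (SE 0.0989, edgeR adjusted p = 9.05e-07). The change was close to that of GOT2, from which it differed by 0.01 on the log2 scale against a combined SE of 0.130. Its cytosolic counterpart GPT had 0 counts in all 3 replete libraries and 2, 1 and 1 in depleted ones, at or under the limit of a count of 0, so no comparison of this pair was possible at this depth.

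The branched-chain aminotransferases both fell. BCAT1, the cytosolic enzyme, stood at 70.6, 61.5 and 68.5 CPM in replete and 28.2, 28.6 and 26.9 CPM in depleted libraries (log2 fold change −1.03, SE 0.0948, edgeR adjusted p = 3.82e-07). BCAT2, the mitochondrial enzyme, stood at 13.2, 10.9 and 9.54 CPM in replete and 2.75, 3.55 and 2.65 CPM in depleted libraries (log2 fold change −1.69, SE 0.203, edgeR adjusted p = 5.34e-06). BCAT2 rested on 23 to 31 counts per depleted library, which shows in its wider error. The share of BCAT1 in the counts of both genes was 84.3%, 85.0% and 87.8% in replete and 91.1%, 89.0% and 91.0% in depleted libraries. The groups did not overlap, but several of the libraries' exact 95% intervals did, for example 84.8% to 90.3% in replete replicate 3 and 84.7% to 92.4% in depleted replicate 2. The log2 count ratio differed by 0.63 (2.58 ± 0.223 in replete, 3.21 ± 0.193 in depleted, SD, n = 3, exact permutation p = 0.10, the smallest possible).

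**Figure D3:**
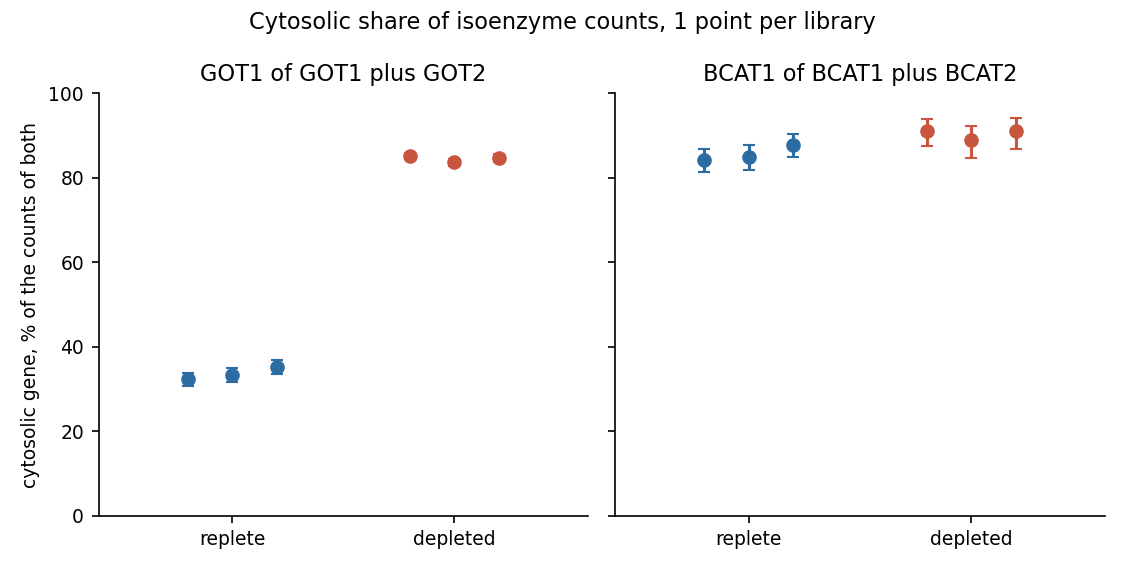
Share of the cytosolic gene in the counts of its isoenzyme pair, in percent, 1 point per library with its exact 95% binomial interval. GOT1 took 32.3% to 35.2% in replete (blue) and 83.7% to 85.2% in depleted (red) libraries. BCAT1 took 84.3% to 87.8% and 89.0% to 91.1%.

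In order of log2 fold change, GLS2 came lowest, then BCAT2, GLUD1, BCAT1, GPT2, GOT2, GLUL and GOT1. BCAT2 and GLUD1 differed by 0.17 against a combined SE of 0.230, and BCAT1 and GPT2 by 0.05 against 0.137, so these neighbours, like GPT2 and GOT2, lay within their errors. GLUD1 and BCAT1 differed by 0.48 against a combined SE of 0.144, and GOT2 and GLUL by 0.32 against 0.155. GLS2 and BCAT2 differed by 1.39 against 0.496, and GLUL and GOT1 were separated by 3.11. These gaps describe the order and were not tested.

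The calls in the 4 lists that follow stand beside the 39.1% of all genes tested that were higher and the 39.4% that were lower. Other genes listed as aminotransferases, not all of which use or yield glutamate, fell where they passed the test. Of 13 listed genes, 6 had enough counts to be tested, 4 fell and 0 rose (median log2 fold change −1.67, against −0.02 over all genes). All 13 were matched, with AGXT2L1 and AGXT2L2 under their current names ETNPPL and PHYKPL. PSAT1, the phosphoserine aminotransferase of serine synthesis, had 438 to 460 CPM in replete and 67.7 to 75.4 CPM in depleted libraries. CCBL1 (now KYAT1), a kynurenine and glutamine aminotransferase, dropped from 252 to 316 counts per library to 20, 40 and 13. Its log2 fold change was −3.50 (edgeR adjusted p = 6.78e-07), and −4.12 without depleted replicate 2. AADAT, the mitochondrial aminoadipate aminotransferase, averaged 5.89 ± 1.004 CPM in replete libraries and 1.24 ± 0.810 CPM in depleted ones (SD, n = 3), and like GLS2 it passed the filter on low counts through the replete group only. In each of the 6 fits that left out a library, 4 of the list fell and 0 rose.

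Among 11 further enzymes that make or use glutamate, 8 could be tested, 5 fell and 1 rose (median −0.87). The gene called higher was GAD1, which decarboxylates glutamate to GABA, with 6, 3 and 9 counts in replete and 30, 35 and 31 counts in depleted libraries. At 2.75 to 4.01 CPM it was a low transcript in depleted cells too, and it passed the filter on low counts through the depleted group only, so a difference was built into its being tested. GCLM, the modifier subunit of glutamate-cysteine ligase, fell from 214 ± 5.94 to 64.04 ± 6.23 CPM, and ALDH18A1, which starts proline synthesis from glutamate, fell from 57.6 ± 0.888 to 21.2 ± 2.88 CPM. FPGS, which adds glutamate tails to folates, fell by 1.15 on the log2 scale. OPLAH, which opens oxoproline to glutamate, had 31, 30 and 21 counts in replete and 4, 4 and 3 in depleted libraries, so like GLS2 it passed the filter through the replete group only. GAD1 and OPLAH are both among the genes counted above.

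The list of malate-aspartate shuttle partners of GOT1 and GOT2 held 7 genes, of which 3 fell and 1 rose (median −0.22). It also takes in mitochondrial glutamate carriers that are not steps of the shuttle, and all 7 are called partners here. MDH1, the cytosolic malate dehydrogenase, fell by 0.73 (SE 0.0790, edgeR adjusted p = 1.80e-06), and its mitochondrial counterpart MDH2 had a log2 fold change of −0.10 (adjusted p = 0.279). SLC25A22, a mitochondrial glutamate carrier and so not a step of the shuttle, fell by 0.88 and is among the 3. The aspartate-glutamate carriers SLC25A12 and SLC25A13 had log2 fold changes of −0.41 (edgeR adjusted p = 0.0200) and 0.28 (0.0178), but SLC25A13 stood at 33.6 to 37.8 CPM in replete and 34.6 to 38.6 CPM in depleted libraries. With library totals alone SLC25A13 was at 0.05 (adjusted p = 0.628) and 0 partners rose and 5 fell, so the single rise rested on the scaling. The call of SLC25A12 was lost when depleted replicate 3 (adjusted p = 0.0963) or replete replicate 1 (0.0779) was left out, and with DESeq2 in place of edgeR (0.0514). That of SLC25A13 was lost without depleted replicate 1 (0.0504), replete replicate 2 (0.0914) or replete replicate 3 (0.0869). Without depleted replicate 2, 5 partners fell, MDH2 and the oxoglutarate carrier SLC25A11 included.

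Downstream of BCAT1 and BCAT2, genes of branched-chain keto acid breakdown were called in both directions. Of 21 genes, 11 fell and 4 rose (median −0.73), while 6 did not pass, and 78.6% of all genes tested passed. The complex that takes over from the aminotransferases was lower in part: BCKDHA, a subunit of its decarboxylase, went from 21.5, 23.0 and 24.1 to 5.41, 7.33 and 6.46 CPM (log2 change −1.62, edgeR adjusted p = 4.81e-07), its partner BCKDHB fell by 1.48 and BCKDK, the kinase that switches the complex off, fell by 1.34. DBT, the transacylase of the complex, did not pass (log2 change 0.19, edgeR adjusted p = 0.191) and lay at −0.03 with library totals alone. Nor did DLD, its dehydrogenase (log2 change −0.10, edgeR adjusted p = 0.203), or PPM1K, the phosphatase that opposes BCKDK (0.01, adjusted p = 0.946). HIBCH, a hydrolase of valine breakdown, fell from 55.1 ± 1.81 to 4.28 ± 0.940 CPM (log2 change −3.45, edgeR adjusted p = 1.92e-10). ACADSB and IVD, dehydrogenases of the isoleucine and leucine branches, fell by 1.84 and 1.13. The genes that rose included ACAA2, a mitochondrial thiolase, from 44.8 ± 1.70 to 57.1 ± 2.76 CPM (log2 change 0.58, edgeR adjusted p = 4.72e-05), and MCCC1, a subunit of methylcrotonyl-CoA carboxylase of the leucine branch, from 5.37 ± 0.426 to 8.21 ± 1.56 CPM (0.84, adjusted p = 0.00121). HSD17B10, a dehydrogenase of isoleucine breakdown, rose too (log2 change 0.52, edgeR adjusted p = 0.00245), with CPM ranges of 85.8 to 98.4 in replete and 94.2 to 136 in depleted libraries that overlapped. With library totals alone, 14 genes of the list fell and 3 rose.

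**Figure D4:**
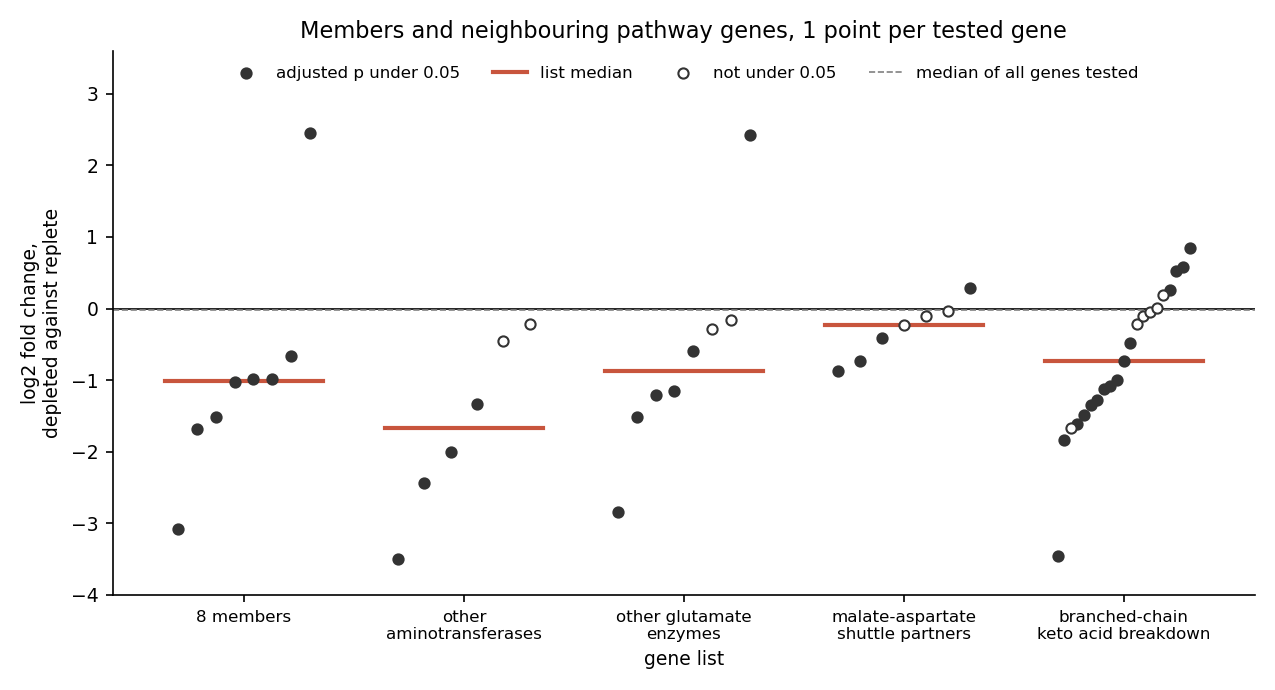
Log2 fold change, depleted against replete, of the tested genes of each list, 1 point per gene. Filled points passed an adjusted p of 0.05, open ones did not, red bars are list medians and the dashed line is the median of all genes tested. GOT1 at 2.45 and GAD1 at 2.42 are the highest points, and the shuttle partners have the list median closest to 0, at −0.22.

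The genes whose pattern over the 6 libraries was most like that of GOT1 were CD2BP2, PLXNB2 and ORAOV1. The measure was the root-mean-square difference in log2 CPM centred on the replete mean, which was 0.05, 0.06 and 0.06 for these genes. CD2BP2, for example, stood at 51.8 to 55.4 CPM in replete and 230 to 255 CPM in depleted libraries. Of 8506 genes compared, all with a mean of at least 10 CPM, 145 lay within 0.2 of GOT1. For GLUD1 the nearest were NDC1, HSD17B4 and MSH6, at 0.03, 0.04 and 0.05, and 356 genes lay within 0.2. Many genes changed at once, and such likeness describes these 6 libraries only.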

How the data were processed

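The deposited values are raw counts, 1 file per library with a column of gene symbols, as their whole numbers and unequal totals show. Bowtie2, edgeR and hg19 are named in the submitters' processing notes without role or version, and the counting program, strand setting and gene models are not given in the sources used here. The 286 symbols found on more than 1 of the 25737 entries were summed. After filterByExpr (minimum count 10 and minimum total 15), trimmed-mean factors were 0.917 to 1.09. Genes were tested, two-sided, by robust quasi-likelihood fits (edgeR 4.0.16, R 4.3.3), with Benjamini-Hochberg adjustment over all genes tested. The SE is the absolute log2 fold change divided by the square root of F. CPM uses library totals. In simulated counts with a dispersion of 0.01, 200 genes were set to change, with as many up as down. The fit called 99% of the 100 set to change by 1 on the log2 scale and 100% of the 100 set to 2. Of its 206 calls, 7 were false. Far fewer genes changed there than in these data and no library stood apart, so the false-call rate under the conditions of these data was not tested. Count ratios had a pseudocount of 0.5.

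The members, lists and tests were chosen with earlier results of these data known. Named are the 8 members, markers and, of each other list, up to 3 genes per direction, by p. The 3 genes nearest in pattern to GOT1 and to GLUD1 are named too, as are counted genes whose exons overlap a member. In GENCODE 29, exons of GLS2, GOT1, GOT2 and BCAT1 also overlap genes that are not among the counted symbols. These lie on the opposite strand, except for that of GLS2, and their part in the members' counts was not tested. MDH2, SLC25A11, GPT, GLUD2, OAT, OPLAH, HIBADH, DBT, BCKDHA, BCKDHB, BCKDK, DLD, PPM1K, ACAT1 and MCCC2 were named after their values were seen. Some genes of the fixed lists are not reported here. Alternatives were other scalings (DESeq2 size factors, upper quartile, library totals), no count filter, DESeq2 1.42.0, limma-voom (limma 3.58.1), a replicate block, the largest entry per symbol, a pseudocount of 1 for ratios, and each library left out. Promoters came from RefSeq on GRCh38.p14. GENCODE 29 served for exon overlaps and pseudogene names only, since its build differs from hg19.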

Additional observations from a re-analysis of the deposited data

How the results depend on the processing

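All 8 members kept their direction and their call under each of the 14 alternative fits, with 1 higher and 7 lower in every one. The 7 include GLS2, which passed the low-count filter of the main fit through its replete libraries only. Over these fits the log2 fold change of GOT1 ran from 2.22 to 2.48, of GLS2 from −3.73 to −2.78, of GLUD1 from −1.74 to −1.48, of GOT2 from −1.21 to −0.92, of GPT2 from −1.21 to −0.92, of BCAT1 from −1.26 to −0.998 and of BCAT2 from −1.91 to −1.58. The genes called over the whole table numbered 9467 to 11028, and library totals alone gave 4132 higher and 5925 lower. The difference in the GOT1 to GOT2 log2 count ratio ran from 3.39 to 3.48, and in the BCAT1 to BCAT2 ratio from 0.55 to 0.76. Of the malate-aspartate shuttle partners, 0 rose and 5 fell with library totals alone, and 0 rose and 5 fell with upper quartile factors. With 1 library left out, 0 to 1 of them rose and 2 to 5 fell. DBT, which did not pass, lay at −0.035 with library totals alone and at −0.018 with upper quartile factors. Of 26 named genes of the other lists, which leave out DLD, PPM1K, ACAT1 and MCCC2, 6 changed call or sign under some alternative (MDH2, SLC25A11, SLC25A12, SLC25A13, HIBADH and DBT). The scaling shift applies to every gene, and the cause of the other moves was not tested.

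With the replicate number as a block, 4941 genes were higher and 4999 lower, and GOT1 was at 2.45 and GLUL at −0.67. The block changed no call of a member. Same-numbered libraries deviated together with correlations of 0.187, 0.0454 and 0.0295, against −0.142 to 0.0900 for libraries of unlike number. The 0.187 of replicate 1 was the highest of all. The labels do not say that the numbers pair libraries, so they were not taken as pairs. Depleted replicate 2 correlated best with replete replicate 3 (0.0900).

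Depth limits GLS2 in depleted libraries (1 to 4 counts), BCAT2 (23 to 31) and GPT.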

Other observations

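Some neighbours of the members varied widely between depleted libraries. HIBADH, the hydroxyisobutyrate dehydrogenase of valine breakdown, was at 27.9, 22.2 and 17.6 CPM in replete libraries and at 11.6, 1.95 and 3.92 CPM in depleted ones. Its log2 fold change was −1.67 (edgeR adjusted p = 0.0525), and −2.71 (adjusted p = 2.41e-06) without depleted replicate 1. Over all its alternatives the adjusted p ran from 2.41e-06 to 0.139. OAT, the mitochondrial ornithine aminotransferase that links glutamate to proline and arginine synthesis, was at 36.6, 15.9 and 29.8 CPM in depleted libraries, against 78.3 to 86.7 CPM in replete ones. OAT and AADAT were lowest in depleted replicate 2, whereas CCBL1 was highest there, with 40 counts against 20 and 13. These genes were singled out after their values were seen, and no cause was tested.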
